A study of Mus musculus with 5 samples.

Results

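The mitochondrial respiratory chain subunits were followed as 103 probe sets of 75 nuclear genes, out of 12488 probe sets and 8251 named genes on the array. A member was any probe set whose annotation gave a single gene symbol of the Nduf, Sdh (a to d), Uqcr, Cox (4 to 8) or Atp5 families, or Cycs or Cyc1. The family names also brought in assembly factors (Ndufaf1, Ndufaf4, Sdhaf1 and Sdhaf2). They also took in 5 isoforms known from particular tissues (Cox6a2, Cox6b2, Cox7a1, Cox8b and Cox8c). Both kinds are set apart where probe sets are sorted by role, and are included in the counts and medians by complex. By complex, the array held 31 genes of complex I, 6 of complex II, 8 of complex III, 15 of complex IV and 14 of complex V, with Cycs as the mobile carrier. Subunits encoded by mitochondrial DNA were not analysed here.

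Polyadenylated RNA of 5 mouse cell lines was hybridised to 1 Affymetrix array each, to follow how the choice between secreted and membrane forms of immunoglobulin heavy chain mRNA differs between lines. AxJ is a plasma cell line, the stage that secretes antibody, and 4 arrays came from stable transfectants of it. These carried empty vector, hnRNP-H, or hnRNP-F (subclones B5 and D6), where hnRNP-F and hnRNP-H are related RNA-binding proteins, and clones had been chosen for high protein levels. The remaining array came from A20, labelled as a memory B cell line. Empty vector and hnRNP-H served as the AxJ controls, both for the hnRNP-F clones and for A20, so those comparisons share their control arrays. The AxJ cells grew with the selection drug G418 and A20 without it, so the drug and the line cannot be told apart. No separate cultures of a line are described, so the p-values reflect only how these arrays vary.

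The median deposited intensity lay between 33.9 (A20) and 41.7 (empty vector). The Gapdh control probe sets give a 5' to 3' signal ratio, which falls when RNA is degraded or poorly labelled. It was lowest in B5 (0.181) and empty vector (0.212), intermediate in A20 (0.384), and highest in D6 (0.683) and on the array labelled hnRNP-H (0.866). Of the overexpressed genes, Hnrnpf could not be followed by symbol. The probe set of Hnrnph1 had a level of 1058 on the array labelled hnRNP-H, below the 1447 of empty vector, with 726 for B5, 985 for D6 and 1520 for A20. Whether that probe set reads the introduced sequence is not given in the sources used here. B cell markers summed to 7217 in A20 and to between 738 and 1025 in the AxJ lines. Plasma cell markers summed to 3620 in A20 and to between 17698 and 25953 in the AxJ lines. Igha carried much of that sum, at 7075 to 14745 in the AxJ lines and 59 in A20. Jchain (3919 to 5478 against 1749) and Prdm1 (92.2 to 157 against 3.16) went the same way. Sdc1 did not separate the lines, at 20.1 to 45 against 30.5.

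The respiratory chain passes electrons from NADH (complex I) and succinate (complex II) to ubiquinone, then through complex III and cytochrome c to oxygen at complex IV, and complex V uses the resulting proton gradient to make ATP. Each complex has a catalytic core, in several of them shared between nuclear and mitochondrial genes. All but complex II also have accessory subunits, all nuclear, that support assembly and stability. B cells that become plasma cells enlarge their secretory apparatus, and mitochondria supply part of the energy and metabolites this needs.

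Many genes of the chain are known to carry binding sequences for NRF-1, ETS-family factors (among them GABP, also called NRF-2) and YY1 close to their start. RefSeq promoter windows (build GRCm38.p6), from 250 bases before to 50 bases after the start, were matched for 61 member genes (66 windows). On either strand, the NRF-1 word GCGCANGCG was in 25.8% of the members' windows and in 6.25% of all 32851 windows. The ETS word CCGGAAG was in 27.3% against 8.86%, and the YY1 word AAGATGGCG in 7.58% against 1.40%. The members' windows also held a median of 19 CpG dinucleotides against 7, so the shares for words that contain CpG are not independent of base composition. The 250 bases before the start are shown for 3 genes whose probe sets passed the test in A20, and for Cox6a1, the general counterpart of Cox6a2. Capitals mark the NRF-1 and ETS words, and each sequence is written 5' to 3' on the gene's strand.
Cox6a1, chr5:115348959-115349208, minus strand: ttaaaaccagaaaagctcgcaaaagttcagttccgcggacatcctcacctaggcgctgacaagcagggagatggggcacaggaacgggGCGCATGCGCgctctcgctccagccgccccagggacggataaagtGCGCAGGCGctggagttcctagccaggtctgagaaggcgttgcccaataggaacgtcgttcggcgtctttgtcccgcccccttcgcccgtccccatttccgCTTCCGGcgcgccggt
Ndufs3, chr2:90904722-90904971, minus strand: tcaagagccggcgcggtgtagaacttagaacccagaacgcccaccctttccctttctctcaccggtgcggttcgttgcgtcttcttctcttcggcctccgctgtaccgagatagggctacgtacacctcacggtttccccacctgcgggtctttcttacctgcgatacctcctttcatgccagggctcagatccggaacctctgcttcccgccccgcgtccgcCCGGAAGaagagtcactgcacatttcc
Ndufb3, chr1:58586147-58586396, plus strand: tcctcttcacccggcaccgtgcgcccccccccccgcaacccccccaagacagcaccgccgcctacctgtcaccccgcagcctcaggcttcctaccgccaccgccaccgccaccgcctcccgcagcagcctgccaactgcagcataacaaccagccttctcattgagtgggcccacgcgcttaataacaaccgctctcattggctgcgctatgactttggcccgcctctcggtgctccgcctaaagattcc
Uqcrc1, chr9:108936398-108936647, plus strand: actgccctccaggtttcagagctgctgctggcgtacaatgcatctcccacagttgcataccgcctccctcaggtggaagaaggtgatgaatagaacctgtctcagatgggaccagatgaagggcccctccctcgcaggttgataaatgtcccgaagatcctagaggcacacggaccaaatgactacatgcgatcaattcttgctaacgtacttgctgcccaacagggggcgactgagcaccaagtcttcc
The Cox6a1 window held 3 NRF-1 matches, a pair of which overlap on opposite strands, and 1 ETS match. Ndufs3 held 2 ETS matches, of which 1 lies after the start and is not shown. Uqcrc1 held 3 NRF-1 matches, all after the start. Ndufb3 held none of the 3 words in its window. A match is a description of the letters and not evidence of a bound site.

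Levels below are quantile-normalised intensities, given in the order empty vector, the array labelled hnRNP-H, B5, D6 and A20. Differences between arrays were taken as log2(intensity + 6.55), a scale that understates the change of dim probe sets. Of the 103 member probe sets, 87 (71 genes) had a highest value above 21.8 and were tested, and 16 were not. Cox6b2, Cox8a, Ndufa12 and Ndufc2 had no probe set above that level on any array. Of the 87, 12 were above it on fewer than 5 arrays, so part of their difference comes from the way they were admitted. In bulk cultures, fewer cells with a transcript and less RNA per cell cannot be told apart.

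A20 and the AxJ controls differed in single subunits of the chain, in both directions. By limma with Benjamini-Hochberg adjustment over all 9108 probe sets tested, 5 of the 87 passed a threshold of 0.05. Cox6a2, Ndufb3 and Cox6c were lower in A20, and Ndufs3 and Uqcrc1 were higher. That is 5.75% of the members, against 5.88% of all probe sets (2.89% higher and 3.0% lower) in the same fit. The members' share of lower calls was larger under other designs: 7 of 87 (8.05%, against 3.30% of all) with arrays paired by Gapdh ratio as a block, 9 (10.3%, against 3.47%) against all 4 AxJ arrays, and 18 (20.7%, against 9.51%) against the array labelled hnRNP-H and D6 alone. Without the array labelled hnRNP-H the median difference of the members was -0.16, and without D6 it was -0.22, against -0.20 with all arrays. With arrays scaled to a common median instead, 2 members were higher and 1 was lower, and over all probe sets the calls moved from 263 higher and 273 lower to 358 higher and 190 lower. Counted by size alone, 16 members (18.4%) were at least 2-fold lower in A20, against 11.3% of all probe sets, and 5 (5.75%) were at least 2-fold higher, against 12.1%. A20 lay below all 4 AxJ lines for 37 members (42.5%, against 28.9% of all) and above them for 18 (20.7%, against 26.0%). The median difference was -0.20 over the members and -0.04 over all probe sets. Under the authors' scaling the medians were -0.21 and -0.14, and under median scaling -0.04 and 0.06. Over the 75 members above 21.8 on every array, 14 were lower by at least 2-fold and 5 higher. The matching shares over all probe sets above 21.8 on every array are not given here, so these counts have no background beside them.

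**Figure D1:**
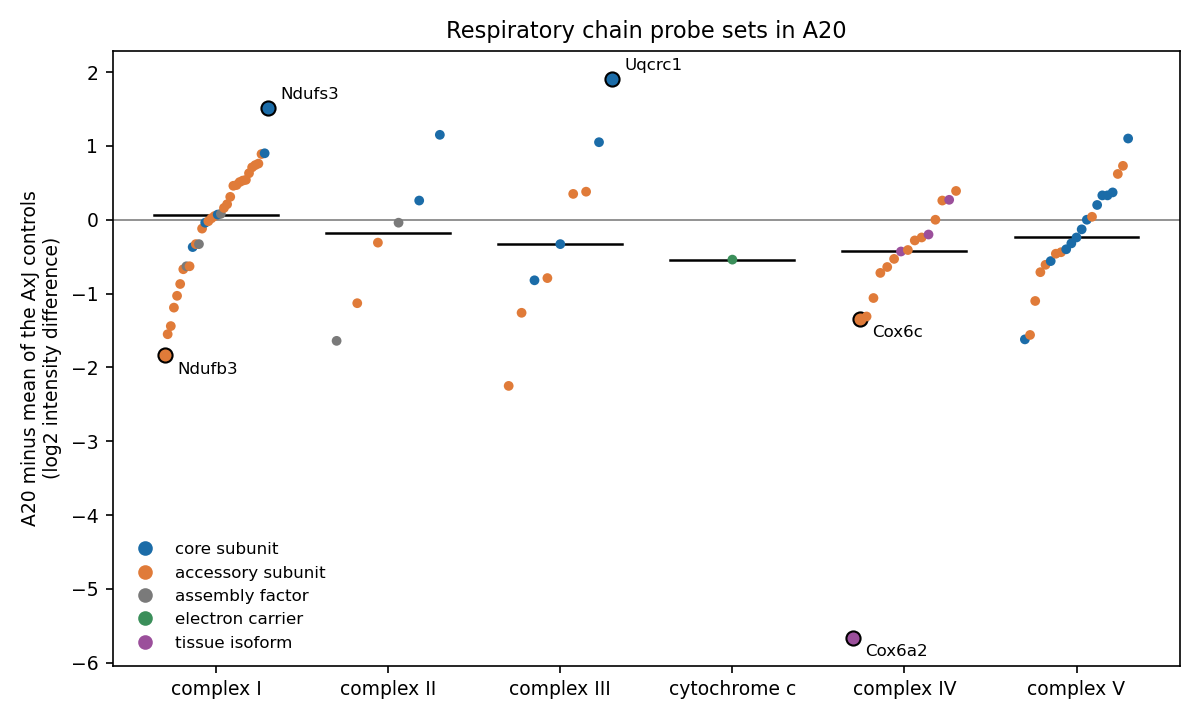
Each point is 1 tested probe set of the respiratory chain, placed by complex, with the A20 level minus the mean of the AxJ controls on a log2 scale; colours give the kind of protein and black bars the median of each complex. Large outlined points passed the limma threshold: Cox6a2 at -5.66 stands far below all others, and the other 4 lie between -1.83 and 1.91.

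The largest difference belonged to Cox6a2 (99667_at), which encodes the heart and skeletal muscle isoform of a regulatory subunit of complex IV. Its levels were 1436, 854, 1340, 1466 and 15.5. All 4 AxJ arrays were bright, and the A20 value was below the 21.8 level. The difference was -5.66 (SE 0.38, adjusted p = 0.000166), and the call held under all 15 alternatives tried. Since the A20 value is dim, the size depends on the added constant: it was -6.07 with a pseudocount of 1 and -4.59 with one of 32. Cox6a1, the isoform of most tissues (99631_f_at), read 7357, 6807, 6420, 5889 and 4892. A20 was again the lowest array for it, but the difference of -0.53 did not pass (adjusted p = 0.335). The other isoforms of particular tissues did not pass. Cox8b, a heart and muscle isoform, read 93.6, 87.5, 127, 72.6 and 65.3 on 160851_r_at. Cox8c, a testis isoform, read 142, 133, 164, 136 and 168 on 100965_at. The other probe set of each gene, 161205_at of Cox8b and 161475_f_at of Cox8c, was below 21.8 on all 5 arrays. Cox7a1, a heart and muscle isoform, was above 21.8 only on the array labelled hnRNP-H (42.1) and in D6 (23.6).

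The summed level of muscle markers in A20 lay within the range of the AxJ lines. Of 28 muscle genes on the array, 13 or 14 were above 21.8 on each array, and their levels summed to between 888 and 972 in the AxJ lines and to 896 in A20. Ckm, the muscle creatine kinase, read 38.6, 47.6, 14.7, 24.8 and 11.3. Acta1 (skeletal actin) and Mb (myoglobin) were below that level on all 5 arrays. Single markers above it on all 5 arrays differed in direction. The muscle regulators Myog (84.3, 79.1, 72.5, 29.4 and 27.9) and Myod1 (88.9, 62.8, 67.8, 70.9 and 55.4) were lowest in A20. Mylpf (43.1, 43.1, 67.2, 45.8 and 54.9) and Actc1 (73.5, 90.4, 138, 115 and 119) lay within the AxJ range there. The 10 testis markers summed to between 325 and 378 in the AxJ lines and to 312 in A20.

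Complex I, the NADH dehydrogenase, had members on both sides in A20. Of its 34 tested probe sets, 19 were higher and 15 lower, with a median of 0.06 that turned to -0.06 under the authors' scaling. Ndufs3 (96899_at), a core subunit of the arm that carries electrons towards ubiquinone, read 676, 627, 877, 818 and 1882. A20 was above every AxJ array, by 1.52 against the controls (SE 0.29, adjusted p = 0.0214). The call was lost without B5, without D6 and without the intensity trend in limma. Leaving out B5 or D6 left the difference at 1.52. These arrays enter through the estimate of spread and through which probe sets were tested. Ndufb3 (93562_at), an accessory subunit of the membrane arm, read 1106, 1432, 1145, 796 and 350. A20 was below every AxJ array, by -1.83 (SE 0.35, adjusted p = 0.0208). This call was lost under median scaling (0.0564) and without the intensity trend.

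Further members of complex I were apart from all AxJ lines in A20 without passing. Ndufv1, the core subunit that binds the flavin cofactor, read 1916, 2449, 2157, 3058 and 4057 (0.90, adjusted p = 0.17). Ndufb8, an accessory subunit, read 881, 1418, 1810, 1635 and 2074 (0.89, adjusted p = 0.203). Both were brightest in A20. Both probe sets of Ndufa3, another accessory subunit, were lowest in A20, at 22.7 against 71.9 to 121 in the AxJ lines for 102097_f_at and at 633 against 1154 to 2037 for 96915_f_at. Their differences were -1.55 and -1.19 (adjusted p = 0.0972 and 0.0875). Ndufa5, also accessory, read 3351, 2198, 3467, 2210 and 997 (-1.44, adjusted p = 0.0663). In the other genes of complex I with more than 1 tested probe set, Ndufa1, Ndufb2 and Ndufv2, the probe sets shared a direction, and those of the assembly factor Ndufaf1 did not (-0.63 and 0.08).

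Complex II, succinate dehydrogenase, is encoded wholly in the nucleus. None of its 6 probe sets passed. Sdha, the flavoprotein that oxidises succinate, read 76.8, 78, 62.3, 80.2 and 180. A20 was the brightest array, at 1.15 (adjusted p = 0.156). Sdhb, the iron-sulfur subunit, gave 0.26 (adjusted p = 0.745). Of the membrane anchors, Sdhc read 730, 935, 1590, 1309 and 375 (-1.13, adjusted p = 0.0828), and Sdhd gave -0.31 (adjusted p = 0.676). Sdhaf1, an assembly factor for the iron-sulfur subunit, read 1494, 1142, 1898, 1029 and 416 (-1.64, adjusted p = 0.0525). Sdhaf1 passed as lower with the Gapdh ratio block.

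Complex III held the largest increase that passed. Uqcrc1 (101989_at), a core protein of the matrix side, read 706, 1051, 1370, 1472 and 3249. A20 exceeded every AxJ array, by 1.91 against the controls (SE 0.33, adjusted p = 0.0145). The hnRNP-F clones also lay above both controls, and against all 4 AxJ arrays as 1 group the A20 call was lost (adjusted p = 0.0519). The A20 call of Uqcrc1 was lost without the intensity trend too. Uqcrc2, the partner of Uqcrc1, went the other way, at 3711, 2115, 1950, 2077 and 1582 (-0.82, adjusted p = 0.267). The lowest value was that of Uqcrb, a small subunit near the ubiquinone site, which read 2223, 878, 487, 923 and 289 (-2.25, adjusted p = 0.055). Its controls alone differed by -1.33, so the spread is large. Uqcrh, which binds the haem-bearing subunit, read 2973, 2555, 3750, 2497 and 1149 (-1.26, adjusted p = 0.0652).

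The cytochromes themselves gave no call. Cyc1, the haem-bearing subunit of complex III that hands electrons to cytochrome c, had a pair of probe sets that disagreed. The probe set 95072_at read 2237, 2598, 3686, 3280 and 5008 (1.05, adjusted p = 0.0693). The other, 162469_r_at, read 563, 646, 650, 568 and 478 (-0.33, adjusted p = 0.64). A20 was thus the highest array on the former and the lowest on the latter. Cycs, the soluble cytochrome c of somatic cells, read 165, 144, 112, 118 and 104 (-0.54, adjusted p = 0.5).

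Complex IV, cytochrome c oxidase, leaned lower in A20. Of its 16 tested probe sets, 12 had a negative difference and the median was -0.42. The median stayed below 0 under the authors' scaling (-0.52) and under median scaling (-0.34). Without the isoforms of particular tissues, 9 of 12 were negative, with a median of -0.47. Of all probe sets tested, 52.2% were below 0. Apart from Cox6a2, the probe set 100550_f_at of Cox6c, a small accessory subunit, passed. It read 7583, 5478, 5593, 4568 and 2542, lowest in A20, with a difference of -1.34 (SE 0.31, adjusted p = 0.0435). This call was the least stable of the 5: it was lost under 8 of 15 alternatives, among them without empty vector (0.0817), without B5 (0.0724), without D6 (0.0903) and under the authors' scaling (0.0634). The other Cox6c probe sets were above 21.8 on 2 arrays each, with differences of -0.64 and 0.39. The suffix f in an Affymetrix identifier marks probes that can match several related sequences. Such probe sets may therefore also read close copies of the gene. Among other members, the probe sets of Uqcrb (95472_f_at), Uqcrc2 (102000_f_at), Sdhaf1 (101023_f_at) and Atp5md (95718_f_at) carry the suffix.

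Among the other subunits of complex IV, Cox7b read 2515, 1085, 1547, 1659 and 662 (-1.31, adjusted p = 0.153), and Cox7a2, the general counterpart of Cox7a1, read 4736, 4288, 4197, 3584 and 2157 (-1.06, adjusted p = 0.0665). A20 was the lowest array for both. Cox5b, a zinc-binding subunit, was nearer to the AxJ lines at 2255, 2219, 2479, 2336 and 1894 (-0.24). The probe sets of Cox4i1, the largest nuclear subunit, disagreed at -0.41 and 0.26.

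Complex V, the ATP synthase, gave no call among 21 tested probe sets. Its median of -0.24 turned to 0.05 under median scaling. Atp5a1, the alpha subunit of the catalytic head, was brightest in A20, at 2383, 1903, 1988, 2223 and 4579 (1.10, adjusted p = 0.0677). A pair of small membrane subunits were dimmest there. Atp5md read 8653, 5744, 8517, 4806 and 2390 (-1.56, adjusted p = 0.0614), and Atp5mpl read 5906, 8161, 6484, 6084 and 3239 (-1.10, adjusted p = 0.0748). Other membrane subunits varied. Atp5k read 172, 78, 212, 119 and 120 (0.04), and Atp5j2 read 38.9, 40.6, 26.9, 19.9 and 21.7 (-0.71), so neither was dimmest in A20. Neither probe set of Atp5g1 was either. Both probe sets of Atp5l were dimmest in A20, at 3351 for 93014_at (-0.46) and 31.1 for 99678_f_at (-0.61), without passing. So was 102134_f_at of Atp5g2, at 495 (-0.32), also without passing. With the Gapdh ratio block, Atp5md, Atp5mpl and the 161047_at probe set of Atp5d passed as lower. Atp5o, a subunit of the stalk that holds the head in place, read 1311, 1077, 718, 1402 and 1974 (0.73, adjusted p = 0.392). For Atp5d, a subunit of the central stalk, 5 probe sets ranged from -1.62 to 0.20. Its lowest, 161047_at, read 44, 129, 30, 93.8 and 20.4, and was brightest on the arrays with the highest Gapdh ratio. Both probe sets of Atp5c1, the gamma subunit, gave 0.33.

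Sorted by role rather than by complex, core and accessory subunits had medians on opposite sides of 0 in A20. Core here is wider than the catalytic core: it counts Uqcrc1 and Uqcrc2, which are core proteins by name. Sdhc and Sdhd, the membrane anchors of complex II, are counted as accessory. The 23 probe sets of core subunits had a median of 0.07, and 5 (21.7%) reached 2-fold higher and 1 (4.35%) 2-fold lower. The 54 of accessory subunits had a median of -0.29, and 0 reached 2-fold higher and 13 (24.1%) 2-fold lower. Of all probe sets, 12.1% reached 2-fold higher and 11.3% 2-fold lower. Under the authors' scaling the medians were 0.11 and -0.35, and under median scaling 0.28 and -0.13. Both calls that were higher in A20, Ndufs3 and Uqcrc1, were listed as core, Uqcrc1 by its name, and Ndufb3 and Cox6c as accessory. Uqcrc1 (1.91) is among the 5 higher core probe sets, and Sdhc (-1.13) is among the 13 lower accessory ones. These counts therefore depend on the assignment. The core list holds several probe sets of single genes, among them all 5 of Atp5d. Role and complex are also mixed: complex IV gave 12 accessory probe sets (median -0.47) and no core ones. Within complex I the medians were 0.07 over 5 core and 0.11 over 26 accessory probe sets. In complexes II, III and V the core medians (0.70, 0.36 and -0.06) were above the accessory ones (-0.72, -0.79 and -0.46). The difference between the roles was not tested.

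**Figure D2:**
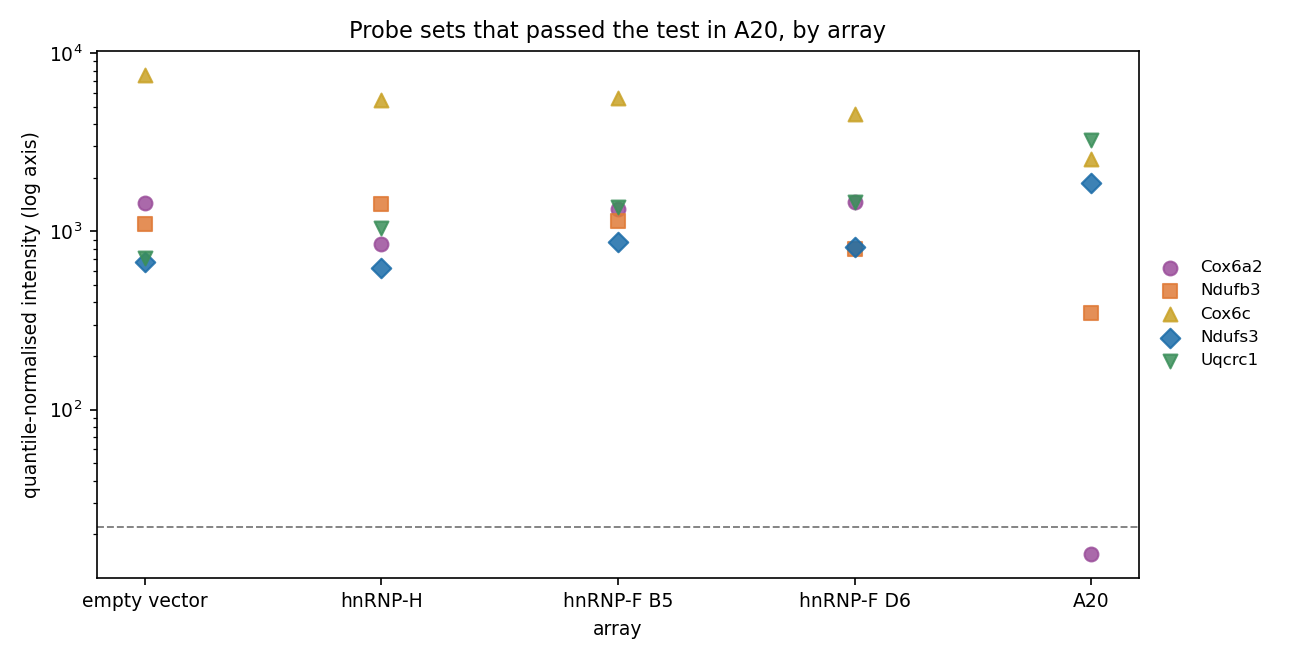
Quantile-normalised intensity on a log axis is shown for the 5 probe sets that passed in A20, on each of the 5 arrays, with the level of 21.8 used for admission as a dashed line. Cox6a2 falls from between 854 and 1466 on the AxJ arrays to 15.5 in A20, Ndufb3 and Cox6c are lowest in A20, and Ndufs3 and Uqcrc1 are highest there.

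No member passed when the hnRNP-F clones were compared with the AxJ controls. The smallest adjusted p among the 87 was 0.788 (limma, Benjamini-Hochberg), and 4 had an unadjusted p under 0.05: Sdhc, Uqcrc1, Uqcrb and Cyc1. Over all probe sets, 0.0110% passed, which is 1 of 9108, and 526 had an unadjusted p under 0.05. By position, both clones lay above both controls for 25 members (28.7%, against 18.2% of all probe sets) and below both for 6 (6.90%, against 19.3%). The median difference was 0.15 over the members and 0.01 over all, and 29 of the 87 were below 0. The member median was 0.09 without the array labelled hnRNP-H, 0.10 without B5 and 0.23 without D6. The clones differed in this: B5 had member medians of 0.22 against empty vector and 0.25 against the array labelled hnRNP-H, and D6 had 0.06 and 0.11.

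By complex, the hnRNP-F medians were 0.24 for complex I, 0.14 for complex II, 0.15 for complex III, 0.09 for complex IV and 0.20 for complex V. In complex I, 24 of 34 probe sets were above 0, and both clones lay above both controls for 13 and below both for 1. In complex V the counts were 8 above and 1 below, and several of the 8 were probe sets of the single gene Atp5d. Over all probe sets, 18.2% were above and 19.3% below. The highest bright members were Sdhc at 0.80, from 730 and 935 in the controls to 1590 and 1309 in B5 and D6, and Uqcrc1 at 0.72, from 706 and 1051 to 1370 and 1472. For both genes the groups did not overlap. Uqcr11, a small subunit of complex III, had control levels of 1911 and 3002 and clone levels of 4464 and 2973 (0.60), so the groups overlapped. Ndufs4, an accessory subunit of complex I needed for its last steps of assembly, gave the largest value (1.21), but only the clones exceeded 21.8, at 29.4 and 31.5.

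Other members above both controls in both clones included Ndufb8 (0.62), Ndufb11 (0.56) and Ndufb7 (0.54) of complex I and the 95072_at probe set of Cyc1 (0.53). In Atp5d, 4 of 5 probe sets gave values from 0.38 to 0.68 and the remaining one -0.45. At the other end, Uqcrb gave -1.05 and Atp5j2, a membrane subunit of ATP synthase, -0.64. Ndufaf4, an assembly factor of complex I, went from 106 and 62.6 to 47.3 and 53.5 (-0.63), and Uqcrc2 read 3711 and 2115 against 1950 and 2077 (-0.48). Cycs gave -0.40. Cox6a2 had control levels of 1436 and 854 and clone levels of 1340 and 1466 (0.34, adjusted p = 0.829).

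**Figure D3:**
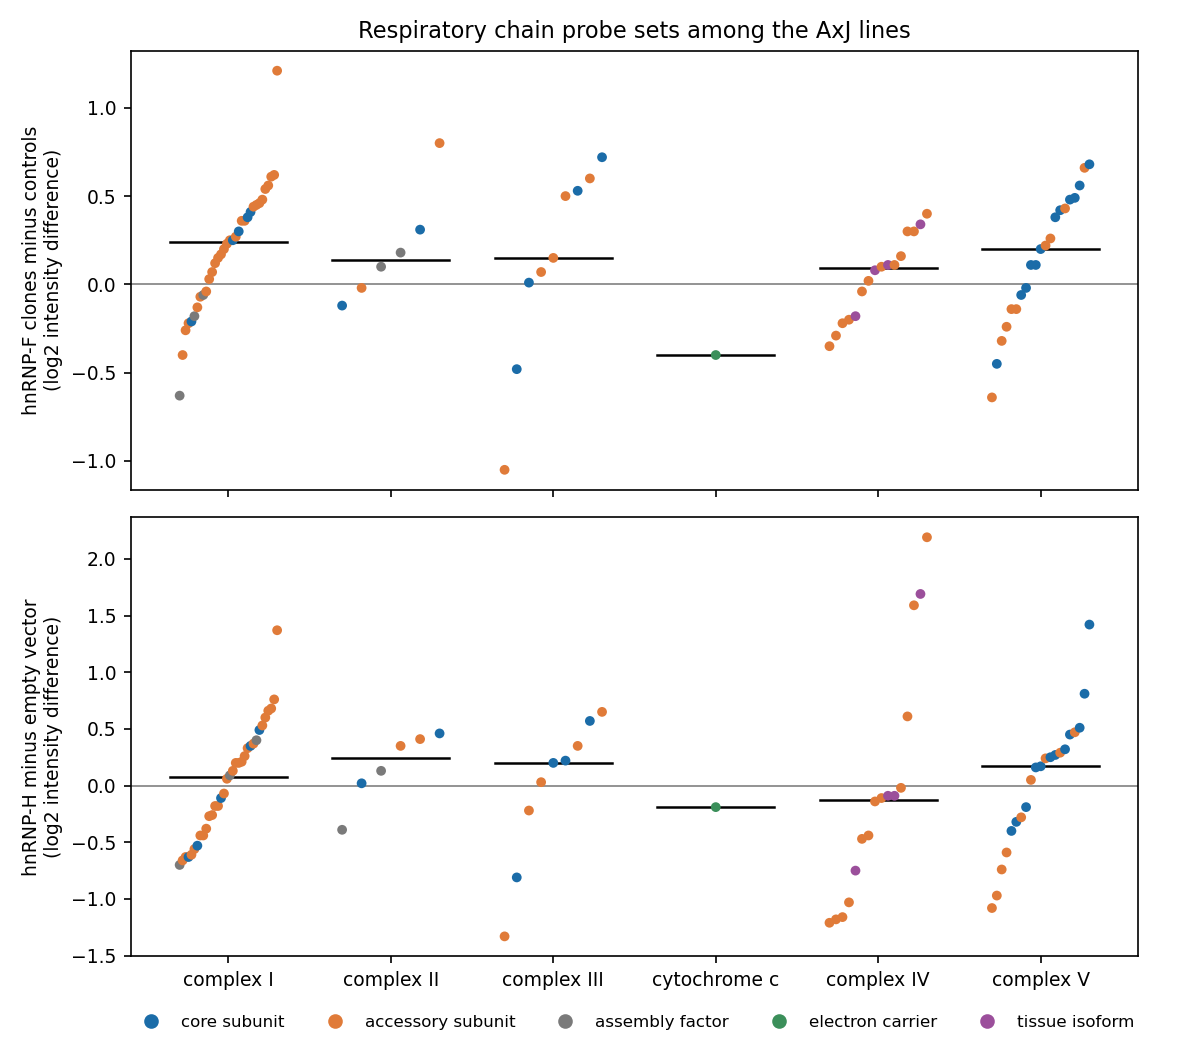
Points are the tested probe sets by complex, with black bars for medians: the upper panel gives the mean of the hnRNP-F clones minus the mean of the controls, and the lower panel the array labelled hnRNP-H minus empty vector, both as log2 differences. In the upper panel the medians lie between 0.09 and 0.24 apart from the single Cycs point at -0.40; in the lower panel complex IV spans -1.21 to 2.19.

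Between the arrays labelled hnRNP-H and empty vector, with 1 array a side and no test, 5 members (5.75%) were at least 2-fold higher on the former, against 9.97% of all probe sets. A further 6 (6.90%) were at least 2-fold lower, against 8.18%. The 5 higher were a dim Cox6c probe set (100551_r_at, 2.19), Cox7a1 (1.69), Cox5a (1.59), the 161047_at probe set of Atp5d (1.42) and Ndufs4 (1.37). All but Atp5d were below 21.8 on the empty vector array, so their size rests on dim values. The 6 lower included bright members: Uqcrb went from 2223 to 878 (-1.33) and Cox7b from 2515 to 1085 (-1.21). Cox4i1 (93788_at, -1.18), Cox6b1 (-1.16), Atp5k (-1.08) and Cox6c (162319_i_at, -1.03) were dimmer. The Gapdh ratio moved from 0.212 to 0.866 between these arrays, and its part in these values was not tested.

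The hnRNP-F subclones were compared with 1 array a side and no test. At least 2-fold higher in D6 were 2 (2.30%, against 6.23% of all probe sets), a dim probe set of Ndufaf1 (161507_f_at, 1.66) and the 161047_at probe set of Atp5d (1.46). At least 2-fold lower were 2 (2.30%, against 5.73%), the dim 100551_r_at of Cox6c (-2.30) and 98118_at of Ndufa1 (-1.55). The count of lower members was 7 under the authors' scaling and 4 under median scaling. The shares of all probe sets under those scalings are not given here. The member medians were -0.21 and -0.18 there, against 0.02 and 0.04 over all probe sets. The bright members nearest to that size were Ndufa2, at 1293 in B5 and 658 in D6 (-0.97), Atp5o, at 718 and 1402 (0.96), and Uqcrb, at 487 and 923 (0.91). The member median was -0.12 against 0.00 over all. The Gapdh ratio was 0.181 in B5 and 0.683 in D6, and its part was not tested. The 161047_at probe set of Atp5d was thus higher on the array with the higher ratio in both of these comparisons, while the other 4 probe sets of that gene gave -0.58 to -0.04 between the subclones.

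Other genes of mitochondrial energy metabolism, counted with 1 probe set per gene, were called in A20 as follows, where 2.89% of all probe sets passed as higher and 3.0% as lower. In the pyruvate dehydrogenase and citric acid cycle list, 1 of 19 was higher and 1 lower. Ogdh, of the oxoglutarate dehydrogenase complex, read 151, 222, 255, 262 and 613 (1.71, SE 0.36, adjusted p = 0.0301). Pdha1, the catalytic subunit of pyruvate dehydrogenase, read 1410, 1522, 1048, 1391 and 522 (-1.48, SE 0.31, adjusted p = 0.0292). Dld, a subunit of both of these complexes, gave -0.16 (adjusted p = 0.859). Gpd2, the glycerol phosphate dehydrogenase that feeds electrons to ubiquinone, was the only call among 11 genes of other electron entry and quinone synthesis, at 1.49 (adjusted p = 0.0494).

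In the mitochondrial ribosome list, which makes the subunits encoded in mitochondrial DNA, 3 of 59 genes were lower in A20 and 0 higher. These were Mrpl11 (-1.78, adjusted p = 0.0367), Mrpl16 (-1.61, adjusted p = 0.026) and Mrpl13 (-1.39, adjusted p = 0.0403). Among 23 genes of protein import and cristae, Timm8a1, a small chaperone of the space between the membranes, was lower (-1.61, adjusted p = 0.0485). No call was made among 15 assembly factors of the complexes, 13 regulators of biogenesis, 14 carriers and porins or 7 genes of peroxide defence. In those lists the largest were Hccs, which attaches haem to cytochrome c (-1.08, adjusted p = 0.101), Polg, the mitochondrial DNA polymerase (1.41, adjusted p = 0.116), the phosphate carrier Slc25a3 (-1.07, adjusted p = 0.338) and the superoxide dismutase Sod2 (-1.69, adjusted p = 0.0557). In the hnRNP-F comparison none of these lists held a call, and the largest values were Mrpl12 (1.24) and Etfdh (1.07), both with an adjusted p of 0.788.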

How the data were processed

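The authors deposited 1 linear intensity per probe set and array for the 5 arrays. Per the deposited values, the trimmed mean of each array (2 percent left out at each end) was 150; the software is not given in the sources used here. Gene symbols were read from a 2016 annotation of the array and renewed by gene identifier: 10855 probe sets had 1 symbol, 396 several and 1237 none, and 10 with several symbols listed a matching one. Control probe sets (66) were left out. Arrays were quantile normalised. Values were taken as log2(intensity + 6.55), the added constant being the 20th percentile. Under R 4.3.3, limma 3.58.1 (lmFit, eBayes with an intensity trend) was applied to probe sets with a highest value above 21.8, the 40th percentile. The fit had 3 group coefficients, 2 residual degrees of freedom and a prior of 6.51; A20, with 1 array, was assumed to vary like the AxJ arrays. P-values are two-sided, adjusted over all 9108 probe sets. The steps were tested on simulated data. The number of arrays limits the precision. Named were the calls, the extremes of each complex, isoforms and genes with several probe sets. Members and lists were chosen with earlier results of these data known. Alternatives covered the pseudocount, filter, scaling, spread model, probe sets per gene, Gapdh ratio, reference group and each AxJ array left out.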

Additional observations from a re-analysis of the deposited data

How the results depend on the processing

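The A20 comparison called 2 members higher and 3 lower. Without the intensity trend 0 were higher and 1 lower, with median scaling 1 was lower, with arrays paired by Gapdh ratio as a block 7 were lower, against all 4 AxJ arrays 9 were lower, and against the array labelled hnRNP-H and D6 alone 4 were higher and 18 lower. The numbers called also changed with each AxJ array left out in turn, as did the shares over all probe sets. The cause of these shifts was not tested. The median A20 difference of -0.20 became -0.17 and -0.16 with pseudocounts 1 and 32, -0.06 without a filter, -0.24 with a filter at the median, -0.04 with median scaling, -0.24 with 1 probe set per gene, -0.27 against the array labelled hnRNP-H and D6, and -0.22 to -0.16 with each array left out. In the hnRNP-F comparison no member was called under any alternative. Members at least 2-fold higher on the array labelled hnRNP-H numbered 2 with pseudocount 32, 3 with a filter at the median and 3 with 1 probe set per gene; with pseudocount 32 those lower numbered 2. In D6, pseudocount 32 or a filter at the median left 1 higher and 1 lower, 1 probe set per gene left 0 of each, and 7 were lower under the authors' scaling and 4 under median scaling. Shares over all probe sets under these alternatives are not given for the 2-fold counts. The labels give no replicate numbers, so the only pairing fitted was that by Gapdh ratio. Among the called members, Cox6a2 passed in all 15 alternatives, Ndufb3 and Uqcrc1 in 13, Ndufs3 in 12 and Cox6c in 7. With 5 arrays and no detection calls used here, small differences of dim probe sets could not be resolved.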
